A study of Mus musculus with 6 samples.

Results

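The receptors through which hematopoietic growth factors act were read in leukemia stem cells (LSCs) of WT and Piezo1 conditional knockout (Piezo1cKO) mice, Piezo1 being the gene of a mechanosensitive cation channel. The set holds 9 genes chosen by symbol, Kit, Flt3, Csf1r, Csf2ra, Csf2rb, Il3ra, Csf3r, Il6ra and Il1rl1, out of 55367 genes listed in the deposited table, and all 9 had values and entered the test. RNA-seq had been made from 3 WT and 3 Piezo1cKO libraries of LSCs sorted from the bone marrow of mice with acute myeloid leukemia (AML), 8 to 10 weeks old. Both groups carried Piezo1 fl/fl alleles and had been given poly(I:C) (pIpC), and Piezo1cKO cells carried Mx1-Cre in addition. In both groups the leukemia came from Lin- bone marrow cells transduced with an MLL-AF9-YFP retrovirus and transplanted into irradiated recipients. Mx1-Cre is switched on by interferon, which pIpC induces, and is not limited to the leukemic cells or to one blood lineage, and no group with Mx1-Cre but without floxed Piezo1 was among the libraries. LSCs were sorted as Lin- Sca-1- c-Kit+ CD16/32hi CD34+ YFP+ cells, so that the protein of one receptor described here, KIT, was itself a sort marker.

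Growth factor receptors of blood cells fall into structural classes. KIT, FLT3 and the receptor of CSF1 are receptor tyrosine kinases that dimerize around their ligand and phosphorylate each other, while the receptors of GM-CSF, IL-3, G-CSF and IL-6 have no kinase of their own and work through bound JAK kinases, STAT transcription factors and the RAS and PI3K pathways. In the marrow, KIT and FLT3 are known from stem and progenitor cells, the G-CSF receptor from granulocytic cells and the CSF1 receptor from monocytic cells, and KIT and FLT3 are recurrently mutated in human AML. Signaling is ended in part by genes that the signal itself turns on, such as Cish and the Socs genes.

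The deposited log2 values look like a regularized log, a transform that pulls each gene towards its mean over the libraries, so that differences on this scale are smaller than those of the reads. The transform was undone to give whole reads, 14112086 to 15483593 on genes per library, and changes are given on both scales. Levels are given as CPM, recovered reads scaled to the normalized library total, or, to compare genes with each other, as RPKM, reads per kilobase of merged exons scaled to the plain library total. Sums over a list of genes are CPM by the plain library total. The reads carry no molecular identifiers, so exact counting intervals, and limits set where a group had no reads, cover counting error only. The intervals of fold changes on recovered reads come from limma-voom and rest on the spread between libraries. Piezo1 itself, on the strand opposite to Ctu2 with 24.6% of its exons shared, had 104, 92 and 113 reads in WT and 35, 58 and 45 in Piezo1cKO libraries, and its level on recovered reads was 45.3% of WT. Nothing in the labels says that the 3 libraries of a group came from separate mice, so the p-values measure the spread between these libraries, which may be technical. The RNA came from bulk cells, in which fewer cells of a type and less RNA per cell cannot be told apart.

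Of the 9 receptors, 5 were higher and 2 were lower in Piezo1cKO LSCs at an adjusted p under 0.05 (limma on the deposited values, Benjamini-Hochberg over 16746 genes), and 2 did not pass. The background was high, since 63.0% of all genes tested passed this threshold, 31.6% upwards and 31.4% downwards. Flt3 and Kit rose, the receptor chains for GM-CSF and IL-3 (Csf2ra, Csf2rb and Il3ra) rose by smaller amounts, and Csf3r and the scarcely read Il1rl1 fell. Csf1r and Il6ra did not pass the test. The median log2 fold change of the 9 receptors was 0.13, beside 0.00 for all genes tested. With the added demand of an absolute log2 fold change over 1, the definition of a differentially expressed gene (DEG), 0 of the 9 were DEGs on the deposited scale, where 0.818% of genes were, 0.257% upwards and 0.561% downwards. Limma-voom on the recovered reads also passed 7 of the 9 at an adjusted p under 0.05, and there 2 were DEGs, Flt3 upwards and Il1rl1 downwards, where 24.9% of genes were, 12.6% upwards and 12.3% downwards. These shares of all genes are the background of every count of called list members given below.

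**Figure D1:**
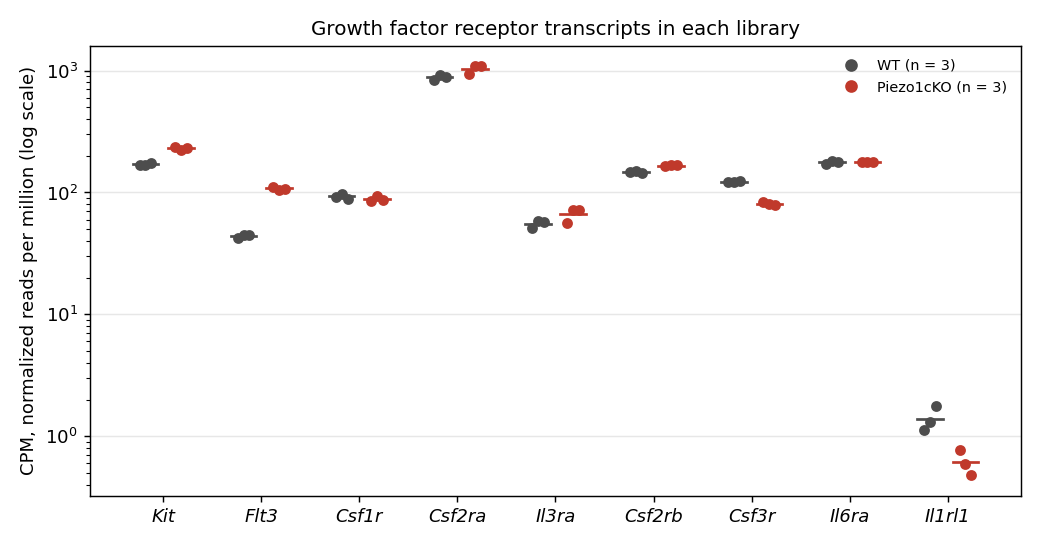
CPM of each receptor (log axis) in the 3 WT and 3 Piezo1cKO libraries, 1 point per library, with lines at the group means. Flt3 and Kit lie higher and Csf3r lower in every Piezo1cKO library than in every WT library, Il6ra and Csf1r lie on top of each other, and Il1rl1 stays under 2 CPM throughout.

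**Figure D2:**
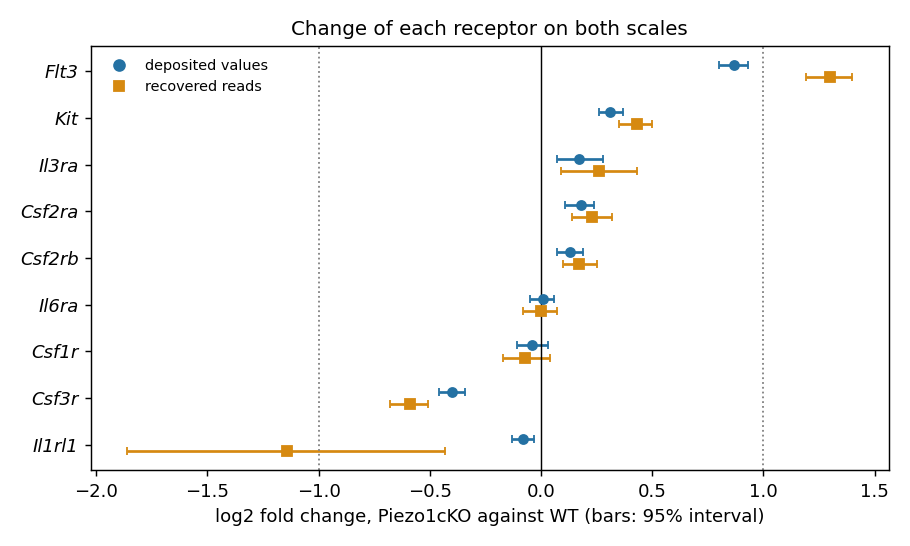
Log2 fold change of each receptor, Piezo1cKO against WT, on the deposited values (circles) and on recovered reads (squares), with 95% intervals and dotted lines at the DEG limits. Both scales place the receptors in nearly the same order, and the interval of Il1rl1 on reads, -1.86 to -0.43, is the widest.

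Flt3, the receptor tyrosine kinase for FLT3 ligand and a driver of early lymphoid and dendritic cell development, had the largest change on the deposited scale among the 9. It lies at chr5:147330741-147400489 on the minus strand of GRCm38. The WT libraries held 639, 656 and 687 Flt3 reads and the Piezo1cKO libraries 1582, 1608 and 1570. Every Piezo1cKO library was thus above every WT library, by far more than the spread within a group. The deposited log2 values were 9.58 ± 0.033 (SD, n = 3) in WT and 10.45 ± 0.027 (SD, n = 3) in Piezo1cKO LSCs, a log2 fold change of 0.87 (SE 0.032, limma adjusted p = 4.92e-14). Of all genes tested, 1.18% had a larger absolute change on this scale. On the recovered reads Flt3 stood at 246% of its WT level (95% interval of the fold 2.29 to 2.64), past both DEG thresholds.

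Most dendritic cell markers rose, as Flt3 did. Of 14 such markers tested, 12 were higher and 1 was lower, and none was at 0 throughout. The lower one was Zbtb46, with 183, 176 and 195 reads in WT and 66, 88 and 68 in Piezo1cKO libraries. The summed level of the markers was 390 to 411 CPM in WT and 885 to 931 in Piezo1cKO libraries. H2-Ab1 and Irf8 made up 71.8 to 88.7% of this sum. Without them it was 43.9 to 48.6 CPM in WT and 247 to 250 in Piezo1cKO libraries. H2-Ab1, a chain of MHC class II, had 119, 150 and 144 reads in WT against 3052, 3579 and 3303 in Piezo1cKO libraries, its partner chain H2-Aa had 6, 10 and 8 against 641, 588 and 589, and Cd74, the chaperone of MHC class II, had 101, 122 and 117 against 2103, 2221 and 2154. Cd74 and H2-Aa made up most of the Piezo1cKO sum left without H2-Ab1 and Irf8, at 147 and 41.3 CPM. In WT they stood at 7.54 and 0.534 CPM. Bst2, the most abundant marker left outside MHC class II, went from 22.0 CPM in WT to 31.0 in Piezo1cKO LSCs. The part of these markers in the Flt3 result was not tested. B cell markers were higher in 5 of 7 tested and lower in 0, with a summed level of 818 to 846 CPM in WT against 1520 to 1540 in Piezo1cKO libraries, of which Ighm and Cd79b made up 99.6 to 99.7%. Stem and multipotent progenitor markers were mixed, with 5 higher and 3 lower of 11 tested and Slamf1 at 0.

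The 300 bases around the start site of Flt3 are shown as RefSeq has them for GRCm38.p6, from 250 bases before the start site to 50 after it, beside those of Csf3r, the receptor with the largest fall among the more abundant ones. The windows were searched for 5 motifs of blood and cytokine regulators on both strands: GAS, the STAT site (TTCNNNGAA), found in 8.3% of 32851 mouse promoters, PU.1 (GAGGAA, 28.3%), C/EBP (TTNNGNAA, 40.7%), RUNX (TGTGGT, 16.8%) and the site of GATA factors (AGATAA, 11.2%). Matches are in capitals, and C/EBP matches can overlap PU.1 matches.
Flt3 start site, chr5:147400440-147400739, minus strand: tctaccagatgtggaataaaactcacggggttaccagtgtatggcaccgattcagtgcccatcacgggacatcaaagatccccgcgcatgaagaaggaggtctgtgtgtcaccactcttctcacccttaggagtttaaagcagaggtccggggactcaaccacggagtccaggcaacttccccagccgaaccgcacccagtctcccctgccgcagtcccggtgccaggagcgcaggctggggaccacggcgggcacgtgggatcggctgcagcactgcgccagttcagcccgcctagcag
Csf3r start site, chr4:126024409-126024708, plus strand: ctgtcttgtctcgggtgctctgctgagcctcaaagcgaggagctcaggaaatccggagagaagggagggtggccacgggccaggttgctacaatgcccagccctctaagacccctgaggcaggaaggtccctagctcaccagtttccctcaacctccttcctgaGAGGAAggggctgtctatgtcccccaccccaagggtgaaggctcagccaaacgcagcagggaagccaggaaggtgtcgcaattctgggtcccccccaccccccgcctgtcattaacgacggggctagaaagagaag
The Flt3 window held none of the 5 motifs, and the Csf3r window held 1 PU.1 match, 86 bases before the start site. None of the windows on hand for the other members held a GAS match, and the Csf2ra window held 2 PU.1 matches, at 14 and 8 bases before the start site, and 1 C/EBP match. Each of the Kit windows held 1 PU.1 match and no other, and the Il3ra window held 1 C/EBP match and no other. A match is a run of letters and not a bound site. Csf2rb had no entry among the promoters, and none was looked at for Csf1r.

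By their course over the 6 libraries, taken relative to the WT mean, the genes most like Flt3 were Tspan13 (Euclidean distance 0.0494), P2rx4, an ATP-gated channel (0.0581), and Cd180, a Toll-like receptor relative of B cells and myeloid cells (0.0618). Their log2 fold changes on the deposited scale were 0.85, 0.84 and 0.88, beside 0.87 for Flt3. Since the distance is taken over the same libraries, these values describe likeness in level only.

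Kit, the receptor of stem cell factor and a defining protein of blood progenitors and mast cells, rose by a smaller amount. The gene lies at chr5:75574916-75656722 on the plus strand. WT libraries held 2565, 2466 and 2692 Kit reads and Piezo1cKO libraries 3360, 3423 and 3369, with no overlap. The log2 fold change was 0.31 on the deposited values (SE 0.026, limma adjusted p = 8.42e-09), from 11.37 ± 0.023 to 11.68 ± 0.026 (SD, n = 3 each), and 11.8% of genes tested changed more. On recovered reads Kit stood at 135% of WT (95% interval of the log2 fold change 0.35 to 0.50).

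Because c-Kit protein was a gate of the sort, Kit transcript was compared within cells already chosen for it, and the other gate genes are given beside it. Cd34, the gate's other positive progenitor marker, rose from 3906, 3647 and 3838 reads to 5711, 5931 and 5545, which is 0.46 on the deposited log2 scale. Fcgr2b, one of the receptors that antibodies to CD16/32 bind, fell from 3665, 3428 and 3523 reads to 1662, 1728 and 1553, and stood at 47.6% of WT on recovered reads, while Fcgr3, the CD16 gene, read after its values were seen, had 366 CPM in WT and 358 in Piezo1cKO LSCs and did not pass the test (limma adjusted p = 0.574). Ly6a, the gene of Sca-1, for which the cells were gated negative, had 2 reads over the WT group and 34 over the Piezo1cKO group, a ratio of 17.4 (95% exact counting interval 4.46 to 149). Of 6 genes listed for the gate, 5 were tested, with 3 higher and 1 lower. Fcgr1, the remaining one, is not a gene of CD16/32 or of another gate marker, and was at 0 in all libraries.

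Mast cell and basophil markers, which share Kit, were higher in 9 and lower in 1 of 12 tested. Their summed level was 456 to 464 CPM in WT and 1180 to 1200 in Piezo1cKO libraries, led by Cpa3, the mast cell carboxypeptidase (587, 528 and 617 reads in WT, 4990, 4990 and 4846 in Piezo1cKO libraries), and Hdc, the enzyme that makes histamine (820, 810 and 869 against 3543, 3805 and 3605). The mast cell proteases Mcpt1 and Mcpt2 and the receptor Mrgprb2 were at 0 in all libraries. Some other mast cell proteases appeared in Piezo1cKO libraries, and were singled out after their values were seen: Cma1 had 0 reads in each WT library and 23, 20 and 17 in Piezo1cKO libraries, at least 6.83-fold higher against 3 reads per WT library, and Tpsb2 had 1 read over the WT group and 57 over the Piezo1cKO group, a ratio of 58.3 (95% exact counting interval 10.1 to 2340). The proteases Tpsab1 and Mcpt4 did not appear, with 0, 2 and 0 and 1, 0 and 0 reads in WT and 0 in each Piezo1cKO library. Fcer1a and Il4 did not pass the test (limma adjusted p of 0.149 and 0.553). The 1 lower marker was Slc18a2, with 1778, 1579 and 1659 reads in WT and 1488, 1443 and 1376 in Piezo1cKO libraries. The part of these markers in the Kit result was not tested.

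Csf1r, the receptor tyrosine kinase for CSF1 and IL-34 on monocytic cells, on chromosome 18, did not pass the test. The libraries held 1407, 1428 and 1364 reads in WT and 1217, 1442 and 1262 in Piezo1cKO LSCs, and the groups overlapped. The log2 fold change was -0.04 on the deposited values (95% interval -0.11 to 0.03, limma adjusted p = 0.345), and on recovered reads the level was 95.4% of WT with an interval of the fold from 0.887 to 1.03. Hmgxb3 lies on the opposite strand and shares 15.1% of the exon bases of Csf1r, and reads of the pair cannot be told apart if the counting ignored strand. Monocyte and macrophage markers were higher in 5 and lower in 2 of 11 tested, with a summed level of 1150 to 1180 CPM in WT and 887 to 900 in Piezo1cKO libraries. Cd14, the co-receptor for lipopolysaccharide fell from 6117, 6082 and 6702 reads to 405, 503 and 410. Without Cd14 the sum went the other way, from 747 to 772 CPM in WT to 859 to 871 in Piezo1cKO libraries. Cd14 was the list's one DEG on the deposited scale, and on recovered reads 4 markers were DEGs upwards and 1 downwards. Fcgr1 and C1qa, markers of mature macrophages, were at 0 in all libraries, but C1qc had 0 reads in each WT library and 21, 29 and 15 in Piezo1cKO libraries (at least 7.35-fold higher against 3 reads per WT library), Mrc1 0 against 8, 7 and 17 (at least 3.65-fold), and C1qb 2 reads over the WT group against 33. These 3 were singled out after their values were seen.

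GM-CSF, IL-3 and IL-5 share the signaling chain CSF2RB, and each has an alpha chain of its own that gives ligand specificity. All 3 members of this receptor group rose by a little. Csf2ra, the GM-CSF alpha chain at chr19:61223957-61228429 on the minus strand, had 12855, 13387 and 13581 reads in WT and 13436, 16543 and 15810 in Piezo1cKO libraries. Its log2 fold change was 0.18 on the deposited values (SE 0.031, limma adjusted p = 6.88e-05), or 117% of WT on recovered reads, and after scaling for depth the groups did not overlap. Csf2rb, the common beta chain at chr15:78325752-78353847 on the plus strand, had 2253, 2210 and 2204 reads in WT and 2339, 2571 and 2437 in Piezo1cKO libraries. It too was higher in every Piezo1cKO library after scaling, by 0.13 on the deposited log2 scale (SE 0.027, limma adjusted p = 0.000406) and at 113% of WT on recovered reads.

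Il3ra, the IL-3 alpha chain at chr14:14346275-14356011 on the plus strand, was less certain. It had 780, 846 and 869 reads in WT and 801, 1090 and 1041 in Piezo1cKO libraries, and the groups overlapped, with Piezo1cKO replicate 1 inside the WT range. The log2 fold change was 0.17 on the deposited values (SE 0.049, limma adjusted p = 0.00497), or 120% of WT on recovered reads. The call rested on single libraries: without Piezo1cKO replicate 2, Piezo1cKO replicate 3 or WT replicate 1 the change was 0.14 each time and missed the threshold, with limma adjusted p of 0.0594, 0.055 and 0.0559.

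Replicate 1 was low for both alpha chains in both groups. In Csf2ra it differed from the mean of replicates 2 and 3 by -0.07 in WT and -0.15 in Piezo1cKO LSCs on the deposited log2 scale, and in Il3ra by -0.10 and -0.22. The other 7 receptors differed from their replicates 2 and 3 by -0.06 to 0.04. The longest transcripts of Csf2ra and Il3ra are rich in G and C (57.8% and 60.7%) and fall in the top quintile of 16352 genes by this measure, in which the median difference of replicate 1 was -0.02 in both groups, against 0.02 in the bottom quintile. The part of GC content in the differences of Csf2ra and Il3ra was not tested.

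The balance of alpha to beta chain, as the difference of deposited log2 values within a library, was 2.53, 2.60 and 2.61 for Csf2ra to Csf2rb in WT and 2.55, 2.67 and 2.68 in Piezo1cKO LSCs. For Il3ra to Csf2rb it was -1.47, -1.38 and -1.35 in WT and -1.49, -1.29 and -1.28 in Piezo1cKO LSCs. Neither balance separated the groups, with a mean difference of 0.05 (two-sided exact permutation p = 0.3) and 0.04 (exact permutation p = 0.6), where 3 libraries against 3 cannot give a p under 0.1. The IL-5 alpha chain Il5ra, which uses the same beta chain and was singled out after its values were seen, had 0 reads in all 3 WT libraries and 15, 19 and 21 in Piezo1cKO libraries, at least 6.24-fold higher against 3 reads per WT library.

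**Figure D3:**
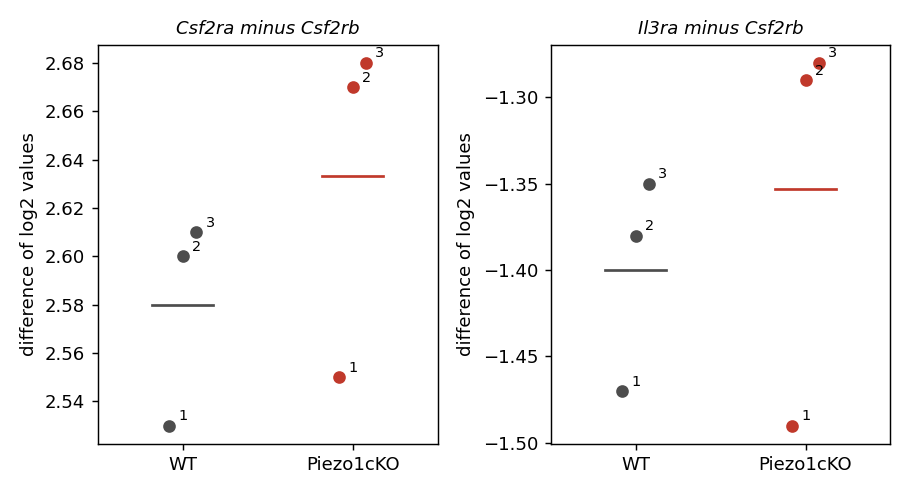
Difference of deposited log2 values between an alpha chain and the common beta chain Csf2rb, for Csf2ra (left) and Il3ra (right), 1 point per library labelled with its replicate number and a line at each group mean. The groups overlap in both panels, and replicate 1 is the lowest point of each group, at 2.53 and 2.55 on the left and at -1.47 and -1.49 on the right.

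Mice carry a second copy of the beta chain gene, Csf2rb2, whose product pairs with the IL-3 alpha chain alone. Of the 50-base windows of Csf2rb transcripts, 12.3% also occur in Csf2rb2, and 18.4% of those of Csf2rb2 occur in Csf2rb, so that the split of reads between them is uncertain. Csf2rb2 had 114, 95 and 112 reads in WT and 105, 118 and 94 in Piezo1cKO libraries, did not pass the test (log2 fold change 0.01, limma adjusted p = 0.859), and held far fewer reads than Csf2rb.

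Csf3r, the G-CSF receptor and main driver of granulocyte production, at chr4:126024550-126044440 on the plus strand, was the receptor that fell among those with more than 100 CPM in WT. The WT libraries held 1846, 1776 and 1887 reads and the Piezo1cKO libraries 1181, 1224 and 1164, with no overlap. The deposited log2 values were 10.72 ± 0.0077 (SD, n = 3) in WT and 10.33 ± 0.021 (SD, n = 3) in Piezo1cKO LSCs, a log2 fold change of -0.40 (SE 0.029, limma adjusted p = 1.1e-09), and 7.37% of genes tested changed more. On recovered reads Csf3r stood at 66.3% of WT (95% interval of the fold 0.625 to 0.703).

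Neutrophil markers fell alongside Csf3r. Of 15 tested, 11 were lower and 2 higher, and their summed level went from 35800 to 38800 CPM in WT to 19000 to 20600 in Piezo1cKO libraries, with none at 0. Elane and Mpo, enzymes of primary granules, made up 90.4 to 93.1% of this sum, and without them it was 2620 to 2680 CPM in WT and 1820 to 1920 in Piezo1cKO libraries. Ngp and Fcnb, proteins of neutrophil granules, had 1321, 1295 and 1292 and 1393, 1294 and 1312 reads in WT, against 145, 130 and 138 and 169, 202 and 175 in Piezo1cKO libraries. Mmp8, the neutrophil collagenase, went the other way, from 39, 42 and 49 reads to 623, 639 and 616. The part of these markers in the Csf3r result was not tested. The genes whose course over the libraries was most like that of Csf3r were Gng12, a G protein subunit (Euclidean distance 0.0209), Pacsin2, a protein of membrane curvature (0.0299), and Eif4a1, a helicase of translation initiation (0.0339), with log2 fold changes of -0.40, -0.38 and -0.40 on the deposited scale.

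Il6ra, the ligand-binding chain for IL-6 at chr3:89864059-89913196 on the minus strand, did not pass the test. It had 2613, 2669 and 2734 reads in WT and 2519, 2713 and 2595 in Piezo1cKO libraries, and the groups overlapped. The log2 fold change was 0.01 (95% interval -0.05 to 0.06, limma adjusted p = 0.816), and on recovered reads the interval of the fold ran from 0.949 to 1.05. Il6st, the gp130 chain that carries the IL-6 signal into the cell, fell from 755, 722 and 707 reads to 444, 464 and 472, to 64.7% of WT on recovered reads (log2 fold change -0.37 on the deposited values, limma adjusted p = 3.51e-08). Per length, Il6ra stood at 20.3 and Il6st at 4.31 RPKM in WT, and at 20.7 and 2.85 in Piezo1cKO LSCs.

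Il1rl1, the IL-33 receptor ST2 of mast cells, basophils and some lymphocytes, at chr1:40429570-40465415 on the plus strand, was scarcely read. The WT libraries held 17, 19 and 27 reads and the Piezo1cKO libraries 11, 9 and 7, and the groups did not overlap. On the deposited values the change was -0.08 (SE 0.025, limma adjusted p = 0.00875) and on recovered reads -1.14 (95% interval -1.86 to -0.43, limma-voom adjusted p = 0.00789), or 45.3% of WT. With the library medians set equal the change was -0.06 and missed the threshold (limma adjusted p = 0.0515). Il1rl1 fell while Cpa3 and Hdc, named above among the mast cell and basophil markers, rose. Its partner chain Il1rap, shared with the IL-1 receptors, fell from 678, 609 and 641 reads to 289, 393 and 336, to 53.8% of WT.

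In all, 6 of the 9 receptors had groups that did not overlap on the deposited values, 4 higher (Kit, Flt3, Csf2ra and Csf2rb) and 2 lower (Csf3r and Il1rl1), and 66.6% of all genes tested had such groups, 33.5% higher and 33.1% lower.

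Compared per kilobase of merged exons, Csf2ra stood far above the other receptors. It had 304 ± 12.9 RPKM in WT and 365 ± 28.7 in Piezo1cKO LSCs (SD, n = 3 each), and made up 68.9 to 71.8% of the sum over the 9 receptors in each library. In WT LSCs Csf3r followed at 33.4, then Il6ra (20.3), Csf2rb (20.1), Kit (19.0), Il3ra (18.4), Csf1r (15.9), Flt3 (7.03) and Il1rl1 (0.20). The libraries of Il6ra and Csf2rb overlapped in this order, as did those of Kit and Il3ra. In Piezo1cKO LSCs the order below Csf2ra was Kit (26.1), Csf2rb (23.1), Csf3r (22.7), Il3ra (22.6), Il6ra (20.7), Flt3 (17.7), Csf1r (15.5) and Il1rl1 (0.0899), and the neighbours from Csf2rb to Il6ra overlapped. By merged exons Csf3r was thus second in WT and within the overlapping middle in Piezo1cKO LSCs, and Flt3 passed Csf1r, which it also did with the other lengths. The places between depend on the length used. With the coding length Il6ra was second in both groups (127 in WT and 130 in Piezo1cKO LSCs) and Csf3r lay below Kit and Csf2rb in WT (48.1 against 57.6 and 54.4), and with the coding length or the longest transcript Flt3 was above Csf3r in Piezo1cKO LSCs, while Csf2ra stayed first and Il1rl1 last under each of the 3 lengths tried.

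**Figure D4:**
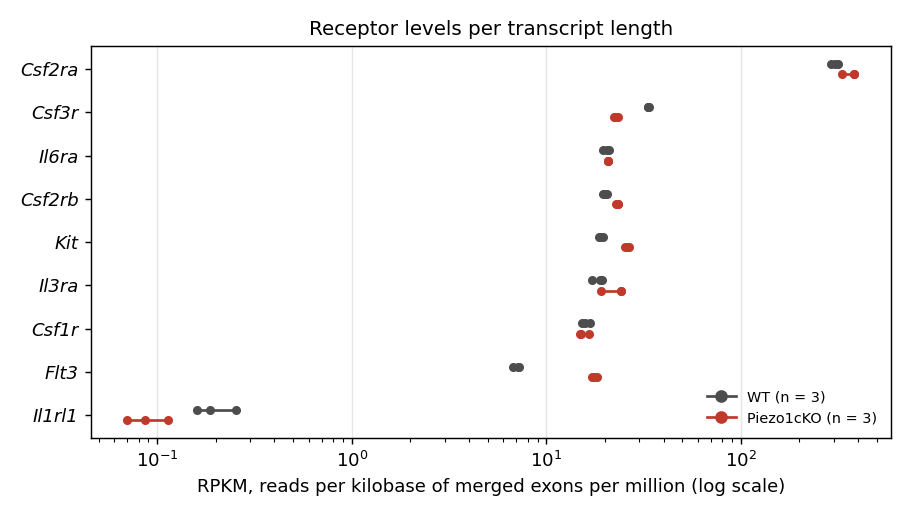
RPKM (log axis) of the 9 receptors, 1 point per library with a line over each group's range. Csf2ra lies near 300 and above, Il1rl1 near 0.2 and below, and the other 7 lie close together, with Flt3 moving from 7.03 in WT to 17.7 in Piezo1cKO LSCs.

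Several genes that answer and restrain receptor signaling fell by more, on the deposited scale, than any of the 9 receptors moved. Of 26 inhibitors of receptor signaling tested, 16 fell and 5 rose, and the list's median log2 fold change was -0.10 on the deposited scale, beside 0.00 for all genes. Of 18 STAT5 and growth factor response genes, 12 fell and 3 rose, with a median of -0.17. On the deposited scale, DEGs were 3 of the first list (Cish, Socs3 and Ptpn1) and 2 of the second (Cish and Pim1), all lower. On recovered reads, 8 of the first were DEGs downwards and 1 upwards, and 7 of the second downwards and 2 upwards. Of all genes tested on the deposited scale, 31.4% fell and 31.6% rose, and 0.561% were DEGs downwards. On recovered reads 12.3% of all genes were DEGs downwards and 12.6% upwards. Cish and Socs2 are on both lists, so the counts of the lists are not separate.

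The start-site windows of Cish and Socs3 are given with their GAS matches in capitals, from the same RefSeq promoters. Socs2 had no entry among them.
Cish start site, chr9:107296409-107296708, plus strand: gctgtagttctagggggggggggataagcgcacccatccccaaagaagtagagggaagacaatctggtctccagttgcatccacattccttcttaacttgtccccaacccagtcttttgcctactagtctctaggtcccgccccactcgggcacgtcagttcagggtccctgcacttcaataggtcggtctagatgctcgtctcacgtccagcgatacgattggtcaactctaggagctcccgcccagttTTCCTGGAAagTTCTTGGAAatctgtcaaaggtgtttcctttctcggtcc
Socs3 start site, chr11:117969317-117969616, minus strand: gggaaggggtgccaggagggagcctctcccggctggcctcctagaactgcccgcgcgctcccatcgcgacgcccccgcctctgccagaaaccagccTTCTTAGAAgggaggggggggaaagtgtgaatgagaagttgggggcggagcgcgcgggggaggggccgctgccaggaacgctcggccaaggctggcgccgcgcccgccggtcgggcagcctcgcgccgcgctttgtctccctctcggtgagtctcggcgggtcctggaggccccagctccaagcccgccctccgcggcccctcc
Cish held 2 GAS matches, at the start site itself and 11 bases after it, and Socs3 held 1, 154 bases before its start site. Neither window held any of the other motifs searched.

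Cish, an SH2 protein that blocks STAT5 docking at cytokine receptors, went from 245, 237 and 305 reads in WT to 8, 15 and 11 in Piezo1cKO libraries. This was 4.52% of WT on recovered reads, and -1.25 on the deposited log2 scale (SE 0.04, limma adjusted p = 2.83e-14). Socs2, a feedback gene of STAT5, fell from 190, 183 and 161 reads to 10, 10 and 4, to 4.56% of WT. Socs3, which binds the G-CSF receptor and gp130 and stops their JAKs, fell from 505, 470 and 587 reads to 10, 9 and 8, to 1.86% of WT (log2 fold change -2.00 on the deposited values, limma adjusted p = 1.84e-17). These 3 feedback genes were present in every WT library and close to absent in every Piezo1cKO library.

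Ptpn1, a phosphatase that removes phosphate from JAK2 and from receptor tyrosine kinases, fell from 3487, 3809 and 3924 reads to 900, 872 and 912, to 24.5% of WT. Pim1, a survival kinase made on STAT5 signaling, fell from 4460, 4288 and 4583 reads to 1033, 1241 and 1165, to 26.4% of WT, and Ccnd2, the D-type cyclin of growth factor entry into the cycle, fell to 41.5%. Others of these lists rose. Spry2, an inhibitor of RAS signaling below receptor tyrosine kinases, went from 3753, 3525 and 3621 reads to 7317, 8013 and 7982, or 219% of WT, and Ccnd1 rose from 81, 89 and 111 reads to 241, 283 and 273, or 291%. In each of these genes the groups did not overlap.

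**Figure D5:**
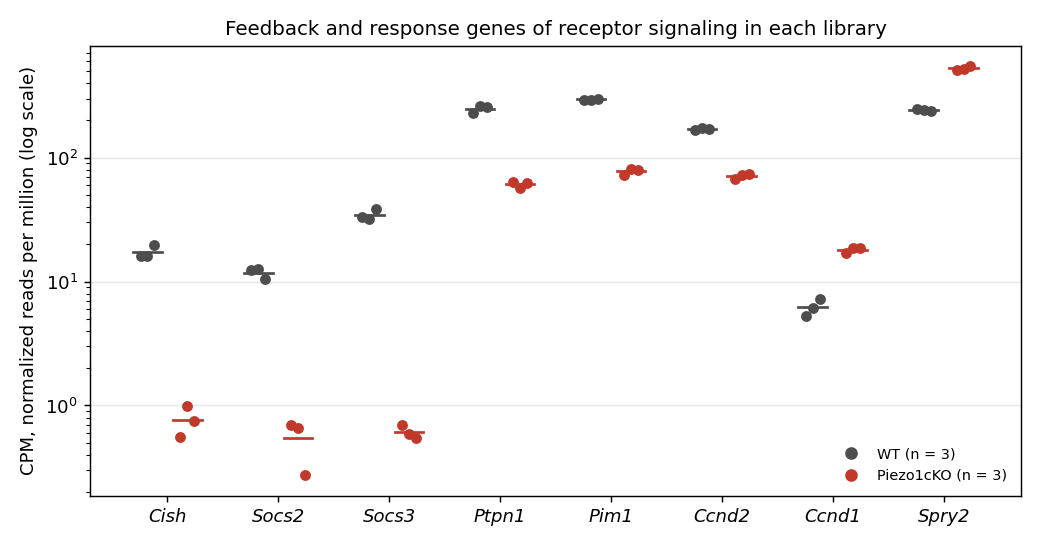
CPM (log axis) of 8 feedback and response genes of receptor signaling, 1 point per library with lines at the group means. Cish, Socs2 and Socs3 fall from 11.8 to 34.6 CPM in WT to under 1 in Piezo1cKO LSCs, Ptpn1, Pim1 and Ccnd2 fall by less, and Ccnd1 and Spry2 rise.

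The JAK, STAT and adaptor genes showed no common direction, with 15 higher and 13 lower of 32 tested and a median of 0.01. Among those with large changes were Gab3, a docking protein of the CSF1 receptor (0.75 on the deposited log2 scale), the SRC family kinase Fgr (-0.59) and Pik3r1, the regulatory subunit of PI3K (0.49). Fgr went from 95, 81 and 100 reads to 2, 1 and 5. Jak2, the kinase bound by the GM-CSF, IL-3 and G-CSF receptors, and the STAT5 genes were read after their values were seen. Jak2 fell from 415, 425 and 420 reads to 272, 226 and 266 (61.7% of WT), Stat5b stood at 79.7% and Stat5a at 120% of WT, each past the threshold by limma on the deposited values (adjusted p of 1.29e-06, 2.95e-05 and 0.0029).

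Among 22 other cytokine receptors tested, 9 rose and 8 fell, with a median of 0.01. Lifr, the LIF receptor, rose from 188, 170 and 161 reads to 853, 789 and 742 and was the one DEG on the deposited scale (log2 fold change 1.27, limma adjusted p = 1.92e-14). On recovered reads 4 of 23 were DEGs upwards and 3 downwards, beside 12.6% and 12.3% of all genes. Il7r, the lymphoid IL-7 receptor chain, rose from 34, 31 and 24 reads to 124, 109 and 142, and Il21r to 190% of WT.

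Of 10 other receptor tyrosine kinases tested, 2 rose and 5 fell. Pdgfrb, a PDGF receptor best known from stromal cells, was a DEG on both scales, rising from 86, 85 and 79 reads to 395, 476 and 410. Of 10 stromal and endothelial markers, Col1a2, Bglap and Kitl were at 0, and Col1a1, Lepr and Cdh5 had at most 3 reads in any library. Kdr had 8, 1 and 1 reads in WT and 0, 1 and 0 in Piezo1cKO libraries. The 3 tested on the deposited scale, Pdgfrb, Pecam1 and Cxcl12, were higher, though the reads of Cxcl12 overlapped between the groups. Insr rose by 0.21 on the deposited log2 scale, and Flt1, Met and Ddr1 fell by 0.31, 0.21 and 0.20. In the IL-1 receptor family and its adaptors, 4 rose and 5 fell of 13 tested. Irak2, a kinase below the IL-1 and Toll-like receptors, fell from 625, 627 and 658 reads to 304, 303 and 297, Il1rl2 fell to 42.5% of WT, and Irak4 and Il1r1 rose to 139% and 197%.

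The ligands themselves were mostly low. Csf1, the ligand of Csf1r, had the most reads of them, 173, 253 and 209 in WT and 176, 158 and 193 in Piezo1cKO libraries, and Flt3l had 38, 31 and 19 against 39, 42 and 31. Neither passed the test, with limma adjusted p of 0.149 and 0.17. Kitl, Csf2 and Il3 were at 0 in all 6 libraries, which allows up to 3 reads per library, and of 4 ligands tested 2 fell. Il33, the ligand of ST2, had 17, 19 and 20 reads in WT and 5, 2 and 7 in Piezo1cKO libraries, and Il6 had 8, 8 and 3 against 0, 3 and 1, with overlapping groups. Of 8 genes of receptor shedding, 4 rose and 4 fell. Adam17, the protease known to shed the CSF1 and IL-6 receptors, rose to 115% of WT and Adam10 fell to 77.3%, while Adam8 fell from 547, 566 and 598 reads to 162, 217 and 190 and Adam15 rose to 138%. Adam19 had 1 read over the WT group and 69 over the Piezo1cKO group, a ratio of 70.6 (95% exact counting interval 12.3 to 2830).

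Among 16 transcription factors known to act on these receptor genes, 7 rose and 6 fell. Cebpb, a C/EBP factor of emergency granulopoiesis and macrophages, fell from 976, 932 and 999 reads to 31, 36 and 35, or 3.64% of WT, and was the one DEG on the deposited scale (log2 fold change -2.37, limma adjusted p = 8e-20), while on recovered reads 3 were DEGs upwards and 1 downwards. Cebpa, the C/EBP factor of granulocyte commitment, rose from 121, 121 and 133 reads to 270, 287 and 279. Gata2, a factor of progenitors and mast cells, rose from 1342, 1391 and 1438 reads to 2267, 2572 and 2514, Klf4 stood at 238% and Lmo2 at 59.8% of WT. Whether any of these bears on a receptor was not tested.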

How the data were processed

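RNA-seq of 3 WT and 3 Piezo1cKO LSC libraries, made by a Smart-seq2 based protocol, was analysed. Per the labels' processing notes and the methods, the authors used fastp 0.20.1 for trimming, HISAT2 2.2.1 for mapping to GRCm38, featureCounts 2.0.1 for counting on genes and DESeq2 1.28.1 for normalization. The deposited log2 values look like a regularized log, which the sources used here do not name; 26402 genes have values and 28965 are listed at 0 in every library. Strandedness of the counting is not given in the sources used here.

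Genes with a mean of at least 1 (16746) entered limma 3.58.1 in R 4.3.3 (lmFit, eBayes with a trend, no covariates, no pseudocount), with Benjamini-Hochberg adjustment over all of them. The regularized log was undone by finding size factors and shrinkage under which values become whole reads: 91.5% of values came within 0.1 of a whole number where the mean reached 1 read, and 22.1% with the shrinkage set 10% off. Values of the receptors lay within 0.211 of a whole read, except Csf2ra (0.492), whose reads are rounded. Simulated reads of 18232 genes came back exactly in 100% of values. They had been transformed by the same model with the fitted settings, so this checks the calculation and cannot test the model. In the simulated comparison of the groups, limma on log2 values called 183 of 200 changed genes and 14 unchanged ones. Limma-voom, run on the simulated reads themselves, called 179 changed and 15 unchanged genes. Fold changes were at a median of 0.54 and 1.01 of the true log2 size. Only these 200 genes changed in the simulation, at 1 fixed spread, whereas 63.0% of genes tested passed in the data. The counts called there therefore do not carry over to the data. Genes with at least 10 recovered reads in total (17352) were fitted with limma-voom, with library sizes scaled by trimmed mean of M values (TMM).

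The receptors and all gene lists were chosen with earlier results of these data known. Named genes are all 9 receptors, from each list around them up to 5 with the largest change past an adjusted p of 0.05, from each cell type list up to 3 past both DEG thresholds and its markers at 0, Piezo1, Csf2rb2, and the 3 genes most like Flt3 and Csf3r; Il5ra, Jak2, Stat5a, Stat5b, Fcgr3, Cma1, Tpsb2, C1qb, C1qc, Mrc1, Elane, Mpo, Ighm, Cd79b, Pecam1, Cxcl12, Csf1 and Flt3l were added, and GC content was read, after their values were seen. Zbtb46, Irf8, Bst2, Slc18a2, Fcer1a, Il4, Tpsab1, Mcpt4, Prg2, Car1, Itga2b, Col1a1, Lepr, Cdh5 and Kdr were also added after their values were seen. Levels per length used merged exons of GENCODE M21. Alternatives were other filters on low values, recovered reads with TMM or library totals, rescaling between libraries, no variance trend, a replicate block, each library left out, other fold thresholds and other transcript lengths. The remaining steps ran in Python 3.11.15 (numpy 2.4.6, scipy 1.17.1, pandas 2.3.3, matplotlib 3.10.9). No protein sequence was used. Some genes that the naming rule selects are not reported here.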

Additional observations from a re-analysis of the deposited data

How the results depend on the processing

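The test against a 2-fold change, in which no receptor was called, is left out of the next count. Of the 125 other alternative fits of the 9 receptors, 121 stayed on their side of the threshold and 0 called changes reversed. The 4 that lost the call were those of Il3ra and Il1rl1 named above. Il6ra, which was not called, changed sign between -0.01 and 0.03. The 137 DEGs of all genes became 91 when tested against a 2-fold change, 4318 on recovered reads with TMM and 4333 with library totals, and 10556 at an adjusted p under 0.05 alone, and ran from 134 to 144 with a library left out. The 5 receptors called higher became 0 against a 2-fold change, and 4 to 5 with a library left out. The 2 called lower became 0 against a 2-fold change, 1 with library medians set equal, and 1 among genes averaging 50 reads or more, where Il1rl1 was not tested. Receptors past both DEG thresholds went from 0 to 2 on recovered reads with TMM or library totals, and to 7 by adjusted p alone. The labels give same-numbered libraries nothing in common but the number. Their deviations correlated at 0.20, 0.16 and 0.07, the last under the 0.1 set for pairing. Each library correlated best with its own number, and pairs of unlike number ran from -0.17 to 0.03. What same-numbered libraries shared was not tested. The replicate block left 137 DEGs, 5 receptors higher, 2 lower and 0 past both thresholds. Of 80 counts of list members called, 77 stayed within 1.5 times. Reads under 30 per library, as in Il1rl1, limit precision.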

Other observations

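Further cell type markers, fixed with the same lists, moved in ways not described above. Eosinophil markers, which include the IL-5 receptor chain, were mixed, with 4 higher and 3 lower of 8 tested, Ccr3 at 0 and a summed level of 485 to 524 CPM in WT and 497 to 520 in Piezo1cKO libraries. Their one DEG on the deposited scale, where recovered reads gave 2 upwards and 3 downwards, was Epx, the eosinophil peroxidase, which fell from 2071, 2053 and 2034 reads to 426, 516 and 478, to 23.6% of WT. Epx and Prg2 made up 88.3 to 94.2% of the eosinophil sum. Without them it was 28.5 to 30.2 CPM in WT and 56.2 to 58.2 in Piezo1cKO libraries. Erythroid and megakaryocyte markers were higher in 2 and lower in 5 of 11 tested, with summed levels of 32.9 to 39.5 and 22.1 to 25.4 CPM. T and NK cell markers were higher in 4 and lower in 2 of 6 tested, with Cd8a at 0. Mecom, the EVI1 transcription factor of stem cells, had 1940 reads over the 3 WT libraries and 1 over the 3 Piezo1cKO libraries, and it was lower in every Piezo1cKO library (log2 fold change -2.42 on the deposited values, limma adjusted p = 1.31e-18).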
